A study of Mus musculus with 39 samples.

Results

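At passage 3, leukaemias with added miR-126 (AE9a+miR-126-P3, 3 arrays) were set against leukaemias lacking miR-126 (miR-126KO+AE9a-P3, 3 arrays), across all genes. These 6 arrays, of 39 in the series, were taken by their titles. In both groups, mouse marrow cells expressing AE9a, which is a shortened AML1-ETO fusion of t(8;21) leukaemia, had been passaged through bone marrow transplant recipients. AE9a+miR-126-P3 cells carried the fusion together with added miR-126, and miR-126KO+AE9a-P3 cells carried the fusion on a background with miR-126 knocked out. Transplanted CD45.1+ cells were sorted from recipient marrow at the end stage of disease, and 1 array was run per mouse. The series also holds AE9a leukaemias with miR-126 left alone, passages 1, 2 and 4 of each arm, and 3 normal controls (NC) of passage 1. The sources used here do not give the vector that delivered miR-126, the strain and age of the mice, or which donor seeded which recipient, so each p-value reflects only how far these recipients differed, which may be technical.

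MicroRNAs silence messenger RNAs that pair with their seed, bases 2 to 8 counted from the 5′ end. miR-126 lies in an intron of Egfl7 and is best known from endothelium and from haematopoietic stem cells. In the stem cells it restrains signalling through PI3K and helps to keep cells quiescent. AE9a joins the DNA-binding part of RUNX1 to part of ETO and holds myeloid cells at an immature stage. Genes of the mature monocyte, macrophage and granulocyte lineages are therefore a usual readout in this model.

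The added microRNA is shown because the contrast is defined by it. RefSeq (GRCm38.p6) places the mature mouse form at chr2:26591402-26591423 on the plus strand, and capitals mark its seed.
mmu-miR-126a-3p: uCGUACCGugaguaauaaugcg
The probe set shared by Mir126a and Egfl7 in the annotation read 6.92, 7.46 and 5.90 log2 units in AE9a+miR-126-P3 and 2.98, 3.01 and 2.97 in miR-126KO+AE9a-P3. All added arrays lay above all knockout arrays, and the difference was 3.77 ± 0.51 (SE, n = 3 each, limma adjusted p = 2.76e-06). This probe set was fitted in the deposited values alone. AE9a arrays of the same passage, with miR-126 left alone, read 3.01 ± 0.035 (SD, n = 3), next to the knockout, so this probe set cannot check the knockout. It reads longer RNA and not the mature form, and whether its signal came from the vector was not tested. Egfl7 on its own probe set differed by 0.17 ± 0.21 (adjusted p = 0.507).

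The 3 arrays with added miR-126 had a narrower spread than the knockout arrays. The SD of log2 values over 27037 probe sets was 1.67, 1.71 and 1.43 in AE9a+miR-126-P3, and 1.97, 2.04 and 1.97 in miR-126KO+AE9a-P3. Odorant and vomeronasal receptor probe sets, taken as a gauge of background because marrow cells are not known to use these genes, had medians of 4.30, 4.28 and 5.06 in the added arrays and 3.65, 3.36 and 3.65 in the knockout arrays. Above the 95th percentile of these receptors lay 4837, 5497 and 1219 genes in the added arrays, against 9792, 11533 and 9539 in the knockout arrays. Replicate 3 of AE9a+miR-126-P3 stood furthest apart in all these measures. The 95th percentile of these receptors was 6.93, 6.78 and 7.84 in the added arrays. The probe set shared by Mir126a and Egfl7 lay below it in replicates 1 and 3 and above it in replicate 2. Since all 3 arrays of AE9a+miR-126-P3 had low spread, spread and group cannot be told apart at passage 3.

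**Figure D1:**
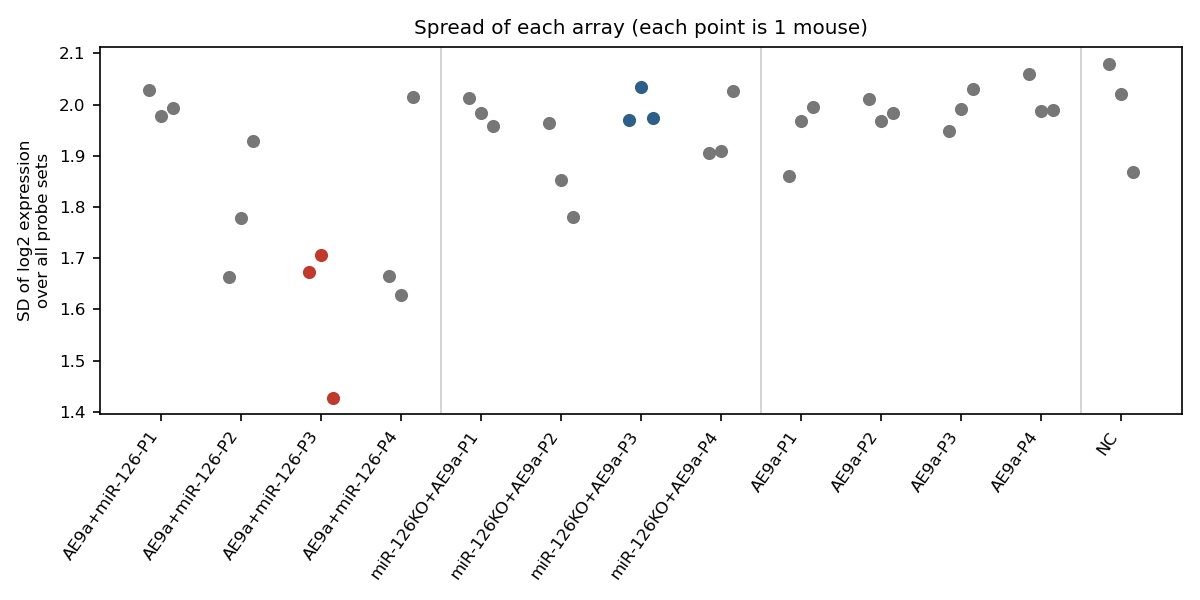
SD of the deposited log2 values over all probe sets on each of the 39 arrays, by group, with AE9a+miR-126-P3 in red and miR-126KO+AE9a-P3 in blue. The red arrays lie at 1.67, 1.71 and 1.43, below the blue arrays at 1.97, 2.04 and 1.97.

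The difference between the groups moved with the level of a gene. When genes were put in 10 equal bins by their mean on the 33 other arrays, the median difference was 0.37 in the dimmest bin and peaked at 0.49 in the third. It was -1.13 in the brightest bin. Of the 2218 genes in each bin, 1286, 1559 and 1693 were called lower in the brightest 3 bins and 9 in the dimmest, so a count of falls in a list of bright genes has a high background. Lists not tied to maturation fell too, with 7 of 9 pan-leukocyte genes lower (77.8%, median -1.20, and -0.07 after cyclic loess) and 6 of 9 housekeeping genes lower (66.7%, median -0.54, which turned to 0.52 after cyclic loess and 0.23 after scaling to a common SD). In both of these lists 0 genes passed all 6 settings. After cyclic loess normalization of the arrays the bin medians lay between -0.10 and 0.05. Over all genes the median difference was 0.17 in the deposited values and -0.01 after cyclic loess, 0.00 after quantile normalization, 0.03 after scaling to a common SD and 0.03 with the spread as a covariate.

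**Figure D2:**
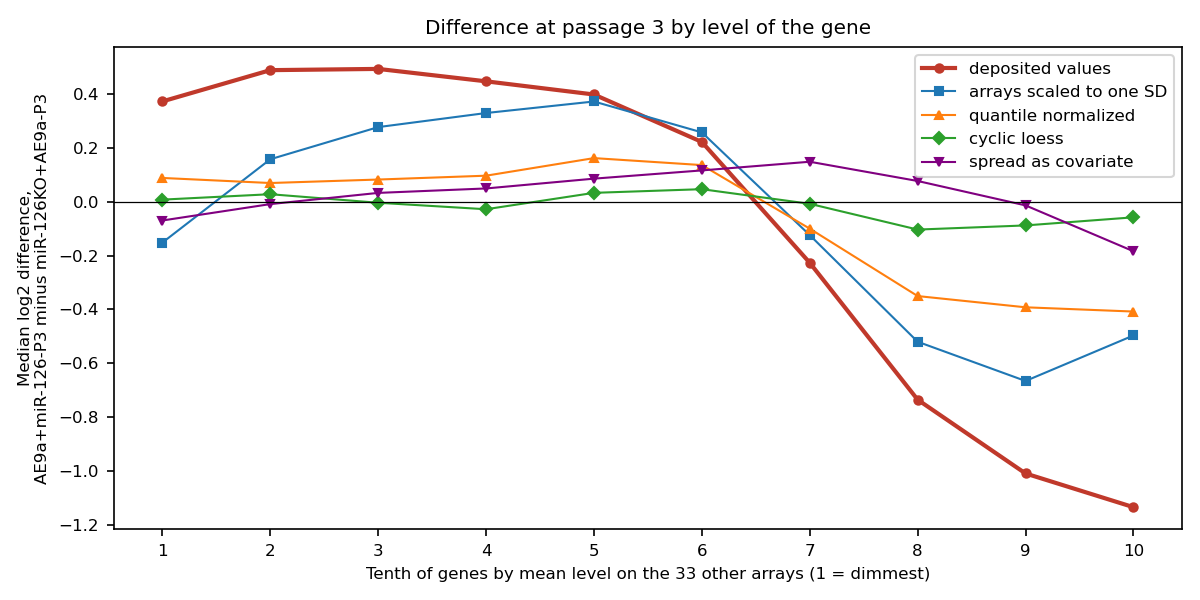
Median log2 difference, AE9a+miR-126-P3 minus miR-126KO+AE9a-P3, against the bin of genes by mean level, 10 bins in all, on the 33 other arrays, for the deposited values and 4 scalings. In the deposited values the median is 0.37 in the dimmest bin and -1.13 in the brightest, while after cyclic loess it stays between -0.10 and 0.05.

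In the deposited values 12807 of 22180 genes passed at an adjusted p under 0.05 in limma (57.7%), 7177 higher (32.4%) and 5630 lower (25.4%) with added miR-126. That balance turned when the compared arrays were fitted alone (4377 higher, 4550 lower) and when dim genes were left out (958 higher, 5473 lower). With a 2-fold minimum 5122 passed (23.1%), 1525 higher (6.88%) and 3597 lower (16.2%). All 3 arrays of one group lay beyond all 3 of the other for 63.3% of genes, 36% higher and 27.3% lower. After cyclic loess the genes past the 2-fold minimum numbered 2356, with 1147 higher and 1209 lower. Fitting the array SD as a covariate left 451 higher and 528 lower. A stricter rule, set after the values were seen, asked a gene to pass in the same direction in the deposited values, under all 4 scalings and without AE9a+miR-126-P3 replicate 3. Under these 6 settings 840 genes passed (3.79%), 302 higher (1.36%) and 538 lower (2.43%). Values are the deposited ones unless a setting is named.

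The ranking of falls and rises took genes that passed with no overlap. It passed over predicted genes, small RNAs, odorant, vomeronasal and taste receptors and ribosomal protein pseudogenes. Among the genes ranked, the deepest falls with added miR-126 were in genes of monocytes, macrophages, red cells and mast cells. All 12 largest falls passed all 6 settings. Ifi204, an interferon-induced sensor of DNA in mouse macrophages, read 3.21, 4.13 and 2.93 in AE9a+miR-126-P3 against 10.39, 9.50 and 9.82 in miR-126KO+AE9a-P3, a difference of -6.48 ± 0.55 (SE, n = 3 each, limma adjusted p = 1.86e-09). Cd36, a scavenger receptor for lipids, read 4.83, 4.99 and 5.12 against 11.59, 11.17 and 11.05 in the knockout. Fn1, which encodes the matrix protein fibronectin, read 6.36, 5.65 and 6.14 against 11.99, 12.03 and 12.27 in the knockout. These 3 genes were low in every added array and high in every knockout array, with no overlap; Cd36 differed by -6.29 ± 0.67 and Fn1 by -6.05 ± 0.59 (adjusted p = 8.42e-08 and 2.15e-08).

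Further surface receptors of myeloid cells followed, the C-type lectins Clec4a1 (-6.11 ± 0.53) and Clec4a3 (-5.77 ± 0.56) and the activating IgG receptor Fcgr4 (-5.43 ± 0.72). Clec4a1 and Clec4a3 belong to a family of similar sequences, so their probe sets may share signal. Chil1, a secreted chitinase-like protein, fell by 5.33, Adgre4, an adhesion receptor of the F4/80 family, by 5.31, Ms4a4a, a membrane protein of macrophages, by 5.24, and Pltp, which transfers phospholipids between lipoproteins, by 5.10. Car1, the carbonic anhydrase of red cells, read 5.23, 5.58 and 6.12 with added miR-126 against 10.78, 11.06 and 10.81 in the knockout (-5.24 ± 0.69). Cpa3, a carboxypeptidase of mast cells, read 5.77, 4.71 and 5.21 against 11.30, 9.05 and 10.63 in the knockout (-5.10 ± 0.74). For all 12 genes no added array lay above the 95th percentile of the odorant receptors and all 3 knockout arrays did. Fewer cells of a type and less RNA per cell cannot be told apart in these bulk samples.

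Among the 12 largest rises were Myb and Ctsg. Myb, a transcription factor that keeps blood progenitors dividing, read 12.28, 12.28 and 11.91 in AE9a+miR-126-P3 against 8.31, 9.14 and 8.66 in miR-126KO+AE9a-P3 (3.45 ± 0.41, SE, n = 3 each, limma adjusted p = 3.49e-07). Ctsg, the serine protease cathepsin G of primary granules, read 12.23, 12.03 and 10.41 against 7.25, 8.80 and 8.46 in the knockout (3.39 ± 0.58, adjusted p = 4.24e-05). Both were high in all 3 added arrays, with Ctsg lowest in replicate 3, and neither overlapped the knockout.

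Tmem178, an endoplasmic reticulum membrane protein, rose most among the genes ranked. It read 9.85, 9.72 and 7.70 with added miR-126 against 4.96, 4.72 and 4.73 in the knockout (4.28 ± 0.53). Dscam, an adhesion molecule of neurons, read 10.33, 8.31 and 8.71 against 5.36, 5.24 and 4.87 in the knockout (3.96 ± 0.54). Gria3, a glutamate receptor subunit, read 10.64, 10.65 and 9.12 against 6.09, 6.51 and 6.48 in the knockout (3.78 ± 0.49). The added arrays lay above the knockout arrays throughout, and replicate 3 was the lowest added array for Tmem178 and Gria3. In the normal controls Gria3 read 8.68 ± 0.18, Tmem178 4.92 ± 0.45 and Dscam 5.62 ± 0.59 (SD, n = 3).

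Ssxb6 (4.26), a member of the SSX family of germ cell genes, Pyroxd2 (3.93), Rbm24 (3.45), an RNA-binding protein of muscle, Stag3 (3.45), a cohesin subunit of meiosis, and the lectin-like gene Clec2m (3.21) rose as well. Btbd35f1 (3.85) and Speer4cos (3.24) completed the 12 largest rises. With the spread as a covariate these last genes differed by 1.27 and 0.36 (adjusted p = 0.202 and 0.759), so 10 of the 12 passed all 6 settings. Ssxb6, Btbd35f1 and Speer4cos lie in families of near-identical copies whose probe sets may share signal. Outside the first 12, the largest rises that passed all 6 settings were Cd163 (3.10 ± 0.67), the haemoglobin scavenger receptor of macrophages, and Cst7 (2.91 ± 0.42), a cystatin that inhibits cathepsins.

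**Figure D3:**
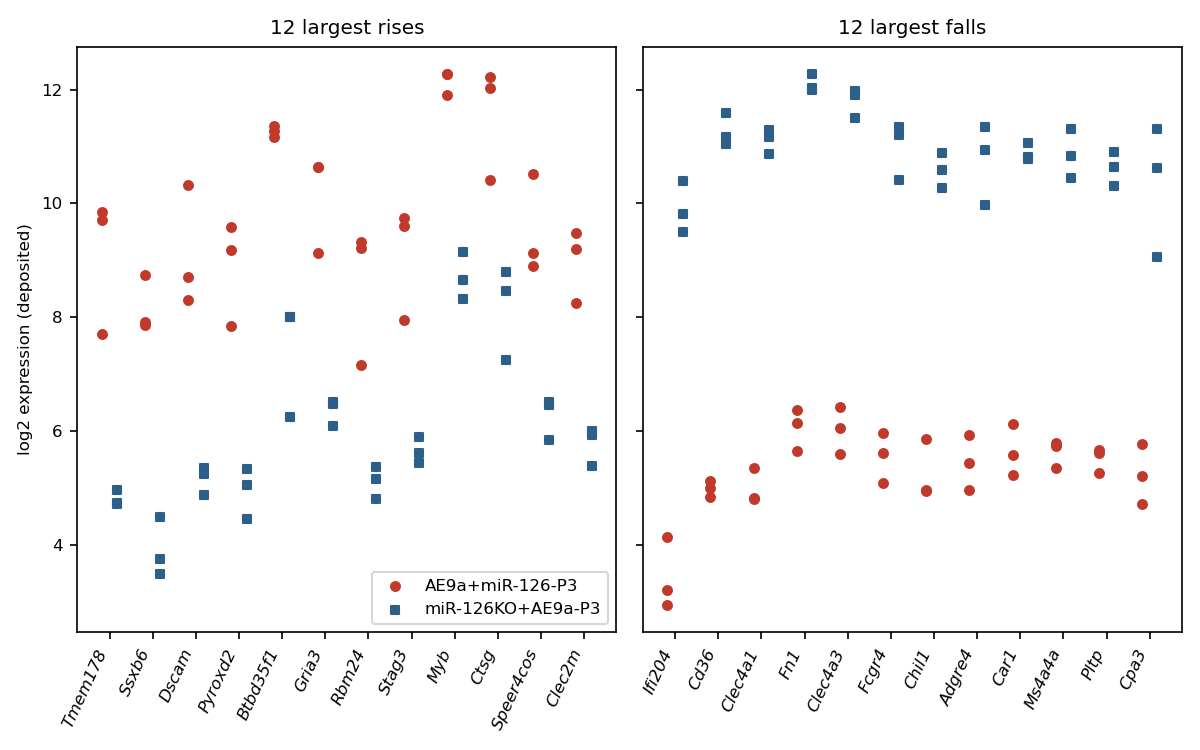
Deposited log2 expression on each array for the 12 largest rises (left panel) and 12 largest falls (right panel) among the genes ranked. All passed in limma with no overlap. AE9a+miR-126-P3 is shown as red circles and miR-126KO+AE9a-P3 as blue squares (n = 3 each). Myb reads 11.91 to 12.28 with added miR-126 against 8.31 to 9.14 in the knockout, and Fn1 reads 5.65 to 6.36 against 11.99 to 12.27 in the knockout.

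Monocyte and macrophage genes were lower with added miR-126 in most cases, and Cd163 was the exception among the strong changes. Of 28 measured members 16 fell and 3 rose (median -1.27), which is 57.1% lower against 25.4% of all genes. The median was -0.79 after cyclic loess and -0.99 with the spread as a covariate, and 8 falls and 1 rise passed all 6 settings. Lyz2, the lysozyme of mouse myeloid cells, read 9.32, 8.61 and 9.23 in AE9a+miR-126-P3 against 12.10, 12.22 and 12.22 in miR-126KO+AE9a-P3 (-3.13 ± 0.31). Adgre1, which encodes F4/80, read 6.17, 6.23 and 6.51 against 10.47, 11.15 and 10.92 in the knockout (-4.54 ± 0.50). The other falls that passed all 6 settings were Cd36, Fn1, Pla2g7 (-5.00), an enzyme that degrades platelet-activating factor, Vcan (-4.74), the proteoglycan versican, the scavenger receptor Msr1 (-3.48) and the chemokine receptor Ccr2 (-2.14). Ly6c2, a surface marker of inflammatory monocytes, was not called (0.03), nor was Cd14, the lipopolysaccharide co-receptor (-0.64).

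Antigen presentation genes of the class II pathway fell, with 8 of 13 lower (61.5%, against 25.4% of all genes) and 0 higher. Their median was -2.59 (-1.60 after cyclic loess, -1.95 with the spread as a covariate). H2-Ab1 and H2-Aa, which encode the chains of the I-A molecule, led the list. H2-Ab1 read 6.03, 5.74 and 5.45 with added miR-126 against 10.27, 10.86 and 10.40 in the knockout (-4.77 ± 0.68, adjusted p = 4.25e-06). H2-Aa (-4.11), H2-Eb1 (-2.88), the peptide loader H2-DMa (-3.03) and the costimulatory ligands Cd86 (-3.90) and Cd80 (-2.59) also passed all 6 settings. Ciita, the master activator of class II transcription, was not called (-0.24).

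Fc receptors fell in 7 of 8 cases (87.5%, against 25.4% of all genes, median -2.05). The fall of Fcgr4, of the high-affinity IgG receptor Fcgr1 (-4.18 ± 0.45) and of the neonatal Fc receptor Fcgrt (-2.69 ± 0.43) passed all 6 settings. Fcer1g, the signalling chain of the activating IgG receptors, fell by 2.15. Class I processing genes gave a median of -0.39 that turned to 0.26 after cyclic loess, 0.00 after scaling to a common SD and 0.14 with the spread as a covariate. Of its 10 members 5 fell (50%, against 25.4% of all genes), and Tapbp (-1.93), which encodes tapasin, was the 1 that passed all 6 settings.

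Interferon-response genes fell in 24 of 31 cases (77.4%, against 25.4% of all genes) and 1, Ifit3, rose (0.89). Their median was -1.85 (-1.33 after cyclic loess, -1.18 with the spread as a covariate). Falls in 10 of them passed all 6 settings. Ifitm3, a membrane protein that blocks virus entry, read 7.91, 8.34 and 7.68 in AE9a+miR-126-P3 against 11.77, 11.91 and 11.88 in miR-126KO+AE9a-P3 (-3.88 ± 0.31, adjusted p = 5.94e-10). Ifih1, the RNA sensor MDA5, read 5.63, 6.33 and 4.99 against 9.77, 9.19 and 9.08 in the knockout (-3.70 ± 0.46). Knockout replicate 1 was the highest array for Ifih1, while Ifitm3 hardly differed among the knockout arrays.

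The other 8 were Ifi204, Ifi205 (-4.30), the deubiquitinating enzyme Usp18 (-3.39), which removes ISG15, the oligoadenylate synthetases Oas2 (-3.12) and Oas3 (-2.63), the RNA sensor Ddx58 (-2.51), the transcription factor Irf7 (-2.16) and the antiviral GTPase Mx1 (-1.85). Ifi204 and Ifi205 belong to a family of similar sequences. Ifit1, an RNA-binding antiviral protein, read 5.64, 6.24 and 5.61 with added miR-126 against 6.79 to 10.49 in the knockout, and its fall of 2.26 ± 0.69 came with replicate 1 far above the other knockout arrays. Isg15 itself was not called (-0.52), and neither was Irf1 (-0.28).

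Promoter sequence is shown for 3 interferon genes because a shared element, the interferon-stimulated response element, is a known feature of this group. The motif, GAAA repeated after any 2 bases, was searched on both strands of each RefSeq promoter window around the start site (GRCm38.p6). It stood in 16 of 24 interferon-response genes with a promoter (66.7%), in 12 of the 18 of these that fell (66.7%) and in 657 of 16990 promoters of all genes tested (3.87%). Capitals mark a match in the 70 bases around it, each read 5′ to 3′ on the strand of its gene. The Ifit1 bases hold a further match, left in lower case. Oas3 (chr5:120777695-120777764, minus strand) and Ifi205 (chr1:174031850-174031919, minus strand) passed all 6 settings, and Ifit1 (chr19:34640755-34640824, plus strand), which holds the motif on the opposite strand, did not.
Oas3: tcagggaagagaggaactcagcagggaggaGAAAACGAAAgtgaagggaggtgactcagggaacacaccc
Ifi205: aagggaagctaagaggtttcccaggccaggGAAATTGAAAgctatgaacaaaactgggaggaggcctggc
Ifit1: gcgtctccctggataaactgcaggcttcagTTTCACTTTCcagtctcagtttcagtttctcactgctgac
A match describes the letters in this window and is not evidence of a bound factor.

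Toll-like receptor genes and their adaptors fell in 13 of 17 cases (76.5%, against 25.4% of all genes) and rose in 0 (median -1.54). Ly96, the MD-2 subunit of the lipopolysaccharide receptor, read 5.07, 4.99 and 4.48 with added miR-126 against 10.37, 8.95 and 9.93 in the knockout (-4.90 ± 0.58). Tlr13 (-3.74) and Tlr8 (-3.72), endosomal RNA receptors, Tlr4 (-2.09), the lipopolysaccharide receptor, and the kinases Irak3 (-3.25) and Irak2 (-2.58) also passed all 6 settings.

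Inflammatory cytokines and their feedback genes fell in 13 of 22 cases and rose in 0 (median -1.31, and -0.29 after cyclic loess). This is 59.1% lower against 25.4% of all genes, and 6 falls passed all 6 settings (27.3%, against 2.43% of all genes). Il1b, which encodes interleukin 1 beta, read 5.83, 5.54 and 8.22 in AE9a+miR-126-P3 against 11.14, 11.58 and 11.48 in miR-126KO+AE9a-P3 (-4.87 ± 0.73). Ccl6 read 5.92, 5.83 and 7.95 against 10.20, 10.44 and 10.26 in the knockout (-3.73 ± 0.49), and Cxcl2, a neutrophil chemoattractant, read 6.44, 6.52 and 8.96 against 10.35, 10.71 and 10.81 (-3.32 ± 0.68). Replicate 3 was the highest added array for all 3 genes, yet no added array reached a knockout array. Il1a (-3.57), the chemokine Ccl5 (-3.07) and Tnfaip3 (-2.42), which shuts off NF-kB signalling, passed all 6 settings too.

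Surface receptors of neutrophils fell in 8 of 13 cases (61.5%, against 25.4% of all genes) and Cxcr1 rose (0.54), and the median was -2.01. The CD11b gene Itgam read 6.70, 6.46 and 7.78 with added miR-126 against 10.52, 10.38 and 10.57 in the knockout (-3.51 ± 0.47), and its partner Itgb2, which encodes CD18, differed by -2.23 ± 0.33. Both passed all 6 settings. Csf3r, the G-CSF receptor, fell by 2.43 in the deposited values without passing all 6.

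Among 11 primary granule genes Ctsg and Mpo (1.27 ± 0.52, adjusted p = 0.038), the myeloperoxidase, were higher under all 6 settings, while Ctsc (-4.23 ± 0.34), the protease that activates granule proteases, was lower under all 6. Mpo read 10.45, 10.09 and 9.08 with added miR-126 against 8.03, 9.17 and 8.61 in the knockout, so the groups overlapped. Elane, neutrophil elastase, fell by 1.49 (adjusted p = 0.025) in the deposited values, and Prtn3, proteinase 3, was not called (-0.22). The list's median of -0.01 turned to 0.53 after cyclic loess, 0.26 after quantile normalization and 0.63 with the spread as a covariate. In the 19 secondary and tertiary granule genes 4 fell (21.1%) and 1 rose (5.26%), shares below the 25.4% and 32.4% of all genes, and the median of -0.55 turned to 0.50 after cyclic loess, 0.00 after quantile normalization and 0.27 after scaling to a common SD. Chil3, a chitinase-like protein, was the 1 that passed all 6 settings (-2.99 ± 0.40). Stfa1, a cystatin of a family of near-identical copies, rose by 3.17 ± 0.79 without passing all 6.

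Adhesion and matrix genes fell as well. Of 22 integrins and adhesion genes 16 fell (72.7%, against 25.4% of all genes) and 2 rose (median -1.62). Itgb1 (-2.89), the common beta chain, Itgb5 (-1.92), Itgam, Itgb2 and the selectin ligand Selplg (-2.44) passed all 6 settings. Itgb3 rose by 0.72 ± 0.31 (adjusted p = 0.044), and Dscam was the other rise. Among 19 matrix and protease genes 9 fell (47.4%) and 2 rose (median -1.24). Thbs1 (-3.98), which encodes thrombospondin 1, Fn1, Vcan and the urokinase receptor Plaur (-2.50) were past all 6 settings.

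Transcription factors of myeloid maturation fell in 6 of 13 cases (46.2%, against 25.4% of all genes) and rose in 0. Spi1, which encodes PU.1, read 8.12, 8.36 and 7.70 in AE9a+miR-126-P3 against 10.10, 9.92 and 9.57 in miR-126KO+AE9a-P3 (-1.80 ± 0.26, adjusted p = 4.23e-06). Cebpb (-1.85), Irf4 (-2.47) and Maf (-2.26), factors of monocyte and macrophage maturation, also passed all 6 settings. The median of the 13, -0.74, turned to 0.25 after cyclic loess and 0.01 after quantile normalization.

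Of 20 progenitor factors 5 were higher (25%) and 5 lower (25%), near the 32.4% and 25.4% of all genes. Myb and Myc (1.11 ± 0.34), a driver of growth, rose under all 6 settings. Myc read 9.39, 9.49 and 7.35 with added miR-126 against 7.57, 7.88 and 7.46 in the knockout, and replicate 3 lay below the knockout. Sox4, a factor of immature cells, rose by 1.84 ± 0.49, and Bcl11a (-2.28), Gfi1b (-1.92) and Gata2 (-1.74) fell, all in the deposited values without passing all 6. The median of -0.30 turned to 0.14 after cyclic loess and 0.31 with the spread as a covariate.

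Among 15 stem and progenitor surface genes 2 rose (13.3%) and 7 fell (46.7%), against 32.4% and 25.4% of all genes (median -0.67). The receptor tyrosine kinase Flt3 read 10.23, 10.02 and 8.18 with added miR-126 against 6.49, 7.10 and 8.28 in the knockout (2.18 ± 0.63, adjusted p = 0.00488). Cd34, a sialomucin of progenitors, read 9.17, 9.72 and 7.57 against 7.67, 6.82 and 7.54 in the knockout (1.48 ± 0.51, adjusted p = 0.016). Both passed all 6 settings, and in both, replicate 3 with added miR-126 lay within the knockout range. Kit, the stem cell factor receptor, was 0.88 lower (adjusted p = 0.076), which did not pass. Csf2rb2 (-2.64), a receptor chain for interleukin 3, fell under all 6 settings, while Csf1r, the macrophage growth factor receptor, fell by 2.68 in the deposited values.

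Hoxa genes and their cofactors had 6 of 8 higher (75%, against 32.4% of all genes), between 0.50 and 0.75, with Pbx3 lower by 1.77. In the added arrays 0 of the 8 lay above the odorant 95th percentile, 0 passed all 6 settings, and the odorant and vomeronasal receptors themselves had 982 of 1390 genes higher with a median of 0.87.

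Reported miR-126 targets fell in 13 of 21 cases (61.9%, against 25.4% of all genes) and 1, Hoxa9, rose (4.76%, against 32.4%). Their median difference was -0.86, and their median level was 7.47 to 7.90 in the knockout arrays. In the bins of mean level 6.80 to 7.60 and 7.60 to 8.61, 1286 and 1559 of 2218 genes fell. The median was -0.07 after cyclic loess, -0.32 after quantile normalization, -0.58 after scaling and -0.16 with the spread as a covariate. Crk, an adaptor of growth factor and integrin signalling, was the 1 target that passed all 6 settings (4.76%, against 3.79% of all genes). It read 7.06, 7.20 and 6.77 with added miR-126 against 9.48, 8.91 and 8.59 in the knockout (-1.98 ± 0.28, limma adjusted p = 4.85e-06). Spred1, which restrains RAS signalling, read 6.22, 6.98 and 6.35 against 8.84, 8.07 and 8.23 in the knockout (-1.86 ± 0.37, adjusted p = 0.000205). The groups did not overlap for either gene. Spred1 differed by -0.92 after cyclic loess (adjusted p = 0.0524) and by -1.42 with the spread as a covariate (adjusted p = 0.0891).

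Fzd7, a Wnt receptor, read 5.45, 5.36 and 5.89 with added miR-126 against 6.95, 7.26 and 6.88 in the knockout (-1.46 ± 0.24), and its difference with the spread as a covariate was -0.93 (adjusted p = 0.060). Tom1 (-2.41), an endosomal sorting protein, the metalloprotease Adam9 (-1.84), Spred2 (-1.36) and the phosphatase Ptpn9 (-1.22) fell in the deposited values without passing all 6. Errfi1, an inhibitor of the EGF receptor, differed by -1.22 ± 0.52 (adjusted p = 0.0451) and by -0.14 after cyclic loess. Zzef1 differed by -0.71 ± 0.24 and turned to 0.31 after cyclic loess, 0.09 after quantile normalization and 0.30 with the spread as a covariate. Targets such as Pik3r2 (0.08), a regulatory subunit of PI3K, and Irs1 (0.59) were not called.

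Runx1t1, the mouse counterpart of ETO, read 6.50, 6.42 and 6.31 in AE9a+miR-126-P3 against 5.91, 5.84 and 5.54 in miR-126KO+AE9a-P3 (0.65 ± 0.20, adjusted p = 0.00742). This call was lost with the spread as a covariate (0.56, adjusted p = 0.249), and the sources used here do not say whether these probes read the transgene. Runx1 differed by -1.13 ± 0.25 in the deposited values and by -0.02 after cyclic loess. The ERK feedback list had 6 of 19 lower (31.6%) and 2 higher (10.5%), against 25.4% and 32.4% of all genes. Its median of -0.21 turned to 0.16 after cyclic loess and 0.20 after scaling. The p53 targets had 7 of 15 lower (46.7%) and 1 higher (6.67%), with a median of -0.60. In both lists 0 genes passed all 6 settings.

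Genes of division and energy supply were mostly lower in the deposited values. Of 32 cell cycle and DNA replication genes 27 fell (84.4%, against 25.4% of all genes) and 0 rose. Ccna2 differed by -2.49 and Mki67, which encodes Ki-67, by -1.90, and the list's median was -1.43. That median was -0.53 after cyclic loess and turned to 0.21 with the spread as a covariate, and 0 of the 32 passed all 6 settings. Respiratory chain subunits (21 of 27 lower, 77.8%, median -0.96) likewise had 0 past all 6. Cytosolic ribosomal proteins had 1 of 19 lower (5.26%). Their median of -0.15 turned to 0.83 after cyclic loess, 0.29 after quantile normalization, 0.86 after scaling and 0.26 with the spread as a covariate.

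Lysosomal genes fell in 17 of 21 cases (81%, against 25.4% of all genes, median -1.33, and -0.22 after cyclic loess). The list is bright, with median levels of 10.34 to 10.65 in the knockout arrays, and 1693 of 2218 genes in the brightest bin fell too. Lipa (-3.15), the acid lipase, and Npc2 (-2.07), a cholesterol carrier, passed all 6 settings. Oxidase and antioxidant genes, with median levels of 10.15 to 10.62 in the knockout arrays, fell in 14 of 16 cases (87.5%, median -1.42, and -0.38 after cyclic loess). Hmox1 (-4.26), the haem-degrading enzyme, Sod2 (-2.61), the mitochondrial superoxide dismutase, and catalase, Cat (-2.50), passed all 6 settings. The NADPH oxidase subunit Cybb was 1.04 lower in the deposited values and turned to 0.07 after cyclic loess and 0.25 after scaling. Glycolysis genes had 6 of 16 lower (37.5%), with the glucose transporter Slc2a1 (-1.96 ± 0.23) past all 6 settings. Yet the list's median of -0.31 turned to 0.62 after cyclic loess, 0.24 after quantile normalization, 0.24 after scaling and 0.13 with the spread as a covariate. Ribosome biogenesis genes had 3 of 23 higher (13%) and 4 lower (17.4%), against 32.4% and 25.4% of all genes. Ppan, a nucleolar factor, rose by 1.42 ± 0.28 under all 6 settings.

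**Figure D4:**
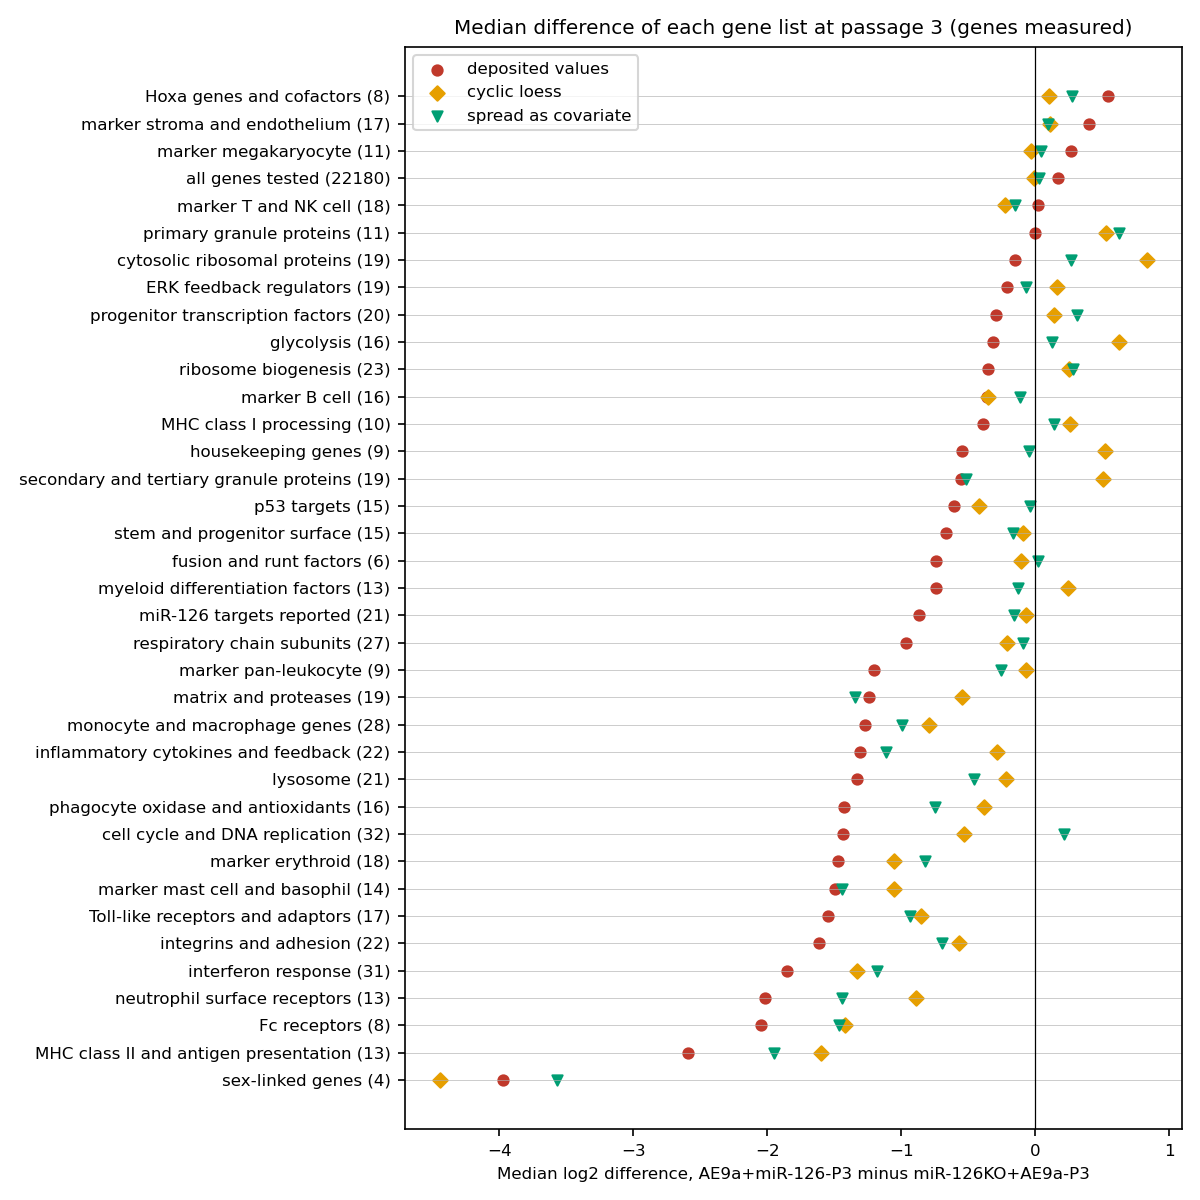
Median log2 difference, AE9a+miR-126-P3 minus miR-126KO+AE9a-P3, of each gene list (number of genes measured in brackets) in the deposited values, after cyclic loess and with the spread as a covariate. Class II antigen presentation lies at -2.59, -1.60 and -1.95 under these settings, while cytosolic ribosomal proteins at -0.15 turn to 0.83 and 0.26.

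Among markers of other marrow cells, those of red cells and of mast cells and basophils moved with the groups. Erythroid genes fell in 13 of 18 cases (72.2%, against 25.4% of all genes, median -1.47, and -1.05 after cyclic loess). Their summed log2 level ran from 99.9 to 103 in the added arrays and from 127 to 141 in the knockout arrays. Car1, Car2 (-4.98) and the Rh-associated glycoprotein Rhag (-3.33) passed all 6 settings. Slc4a1, the red cell anion exchanger, was not called (-0.15). Mast cell and basophil genes fell in 7 of 14 cases (50%) and rose in 2, with a median of -1.49. Their summed levels were 67.9 to 71.2 in the added arrays and 81.4 to 90.9 in the knockout arrays. Cpa3, Ms4a2 (-3.04), a chain of the IgE receptor, and the proteases Cma1 (-2.29) and Tpsb2 (-2.09) fell under all 6 settings, and Mcpt8, a protease of basophils, rose by 2.27 ± 0.50. The part of these cells in other differences was not tested.

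B cell genes had 2 of 16 lower (12.5%, against 25.4% of all genes) and 1 higher, Igll1 (1.77 ± 0.50), a surrogate light chain of early B cells. T and NK cell genes had 1 of 18 lower (5.56%) and 2 higher (11.1%, against 32.4% of all genes). Klrb1c, which encodes NK1.1, was higher by 1.45 ± 0.30 under all 6 settings, and Cd3e, a chain of the T cell receptor complex, was not called (-0.81). Il7r differed by -2.55, and its knockout values of 10.45, 6.65 and 5.37 stood far apart. Stroma and endothelium genes had 8 of 17 higher (47.1%, against 32.4% of all genes), by at most 0.83, and 1 lower, Pecam1 (-1.97), an adhesion molecule of endothelium and leukocytes. None of these 9 passed all 6 settings, and 14 of the 17 lay below the odorant 95th percentile in all 3 added arrays. Megakaryocyte genes had 3 of 11 higher (27.3%, against 32.4% of all genes) and 0 lower, and the rise of Itgb3 passed all 6 settings. The list median of 0.27 turned to -0.03 after cyclic loess. Ptprc, which encodes CD45, read 10.28, 10.58 and 9.31 with added miR-126 against 11.15, 11.33 and 11.28 in the knockout. The difference of -1.20 ± 0.28 became -0.07 after cyclic loess.

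Y-linked genes separated the groups. Eif2s3y read 3.68, 3.86 and 3.46 in AE9a+miR-126-P3 against 8.04, 8.21 and 8.14 in miR-126KO+AE9a-P3, and Kdm5d read 2.99, 3.13 and 3.05 against 6.89, 7.24 and 6.99 in the knockout. Uty differed by -3.95, and all 3 genes fell under all 6 settings. Xist, the RNA of the inactive X chromosome, read 11.63, 11.76 and 11.16 with added miR-126 against 10.15, 10.59 and 10.24 in the knockout, a difference that did not pass (1.19 ± 0.93, adjusted p = 0.27). The added arrays and the AE9a-P3 arrays (Eif2s3y 4.08 ± 0.65, SD, n = 3) read low for the Y-linked genes. The same split was seen at passage 4 (Eif2s3y difference -4.80) and not at passage 1 (0.50) or 2 (-0.08). The knockout arrays read both Xist and the Y-linked genes, so they do not form a plain male group. The Y-linked signal and the arm cannot be told apart at passage 3.

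AE9a leukaemias of passage 3, with miR-126 left alone, usually lay nearer the knockout. Their mean was nearer the knockout mean than the added mean for 256 of the 302 genes higher under all 6 settings (84.8%). The same held for 469 of the 538 lower ones (87.2%) and for 81.7% of all 22180 genes, so both shares lie near that of all genes. The AE9a-P3 arrays had SDs of 1.95 to 2.03, against 1.97 to 2.04 in the knockout arrays and 1.43 to 1.71 in the added arrays. The part of array spread in this nearness was not tested. Fn1 read 11.69 ± 1.08 (SD, n = 3) in AE9a-P3, Myb 8.50 ± 0.75, Lyz2 12.07 ± 0.28 and Gria3 5.91 ± 0.37, all nearer the knockout means of 12.10, 8.71, 12.18 and 6.36. Car1 went the other way at 6.44 ± 1.04, nearer the mean with added miR-126 (5.64) than the knockout mean (10.89). Ctsg at 10.54 ± 0.61 lay between the mean with added miR-126 (11.56) and the knockout mean (8.17).

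The same comparison was made at the other passages, in other mice. At passage 1 limma called 129 genes (0.582%), 33 higher (0.149%) and 96 lower (0.433%). Passage 2 had 748 (3.37%), 252 higher (1.14%) and 496 lower (2.24%), and passage 4 had 2960 (13.3%). The 12 largest falls were called in the same direction in 1 case at passage 1 (Car1, -4.51), in 10 at passage 2 and in 12 at passage 4. The 12 largest rises were called in 0 cases at passage 1, in 7 at passage 2 and in 12 at passage 4.

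The test of the difference itself between passages 3 and 1 called 6926 genes (31.2%), 16% of all genes higher and 15.2% lower, among them 11 of the 12 falls and 11 of the 12 rises. With the spread as a covariate 364 genes were called, among them 5 of the falls and 5 of the rises. Fn1, for example, differed by 0.50, -3.56, -6.05 and -5.34 from passage 1 to 4, and Tmem178 by 0.14, 2.04, 4.28 and 5.79. Between passages 3 and 4 limma called 2 genes (0.00902%), Ngp and Retnlg, both higher, with 3205 at an unadjusted p under 0.05, and with array weights 2331 were called. None of the 24 named rises and falls was called between passages 3 and 4 in the deposited values.

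Replicate 3 of AE9a+miR-126-P4 had an SD of 2.01, within the 1.91 to 2.03 of the miR-126KO+AE9a-P4 arrays, whereas its replicates 1 and 2 were again narrow. It had the lowest limma array weight of all 39 arrays, 0.0952, so it departed most from its own group, and it is 1 mouse. That array lay below all 3 knockout arrays of its passage for 488 of the 538 genes lower at passage 3 under all 6 settings (90.7%), against 28% of all genes. It lay above all 3 for 252 of the 302 higher genes (83.4%), against 33.2% of all genes. The settings that picked these genes drew on all 39 arrays, this one included, and its wide spread weighs on the covariate fit. The shares in this paragraph may thus be partly set by the selection and are not separate support. In limma 493 of the 538 lower genes (91.6%) and 204 of the 302 higher genes (67.5%) were called in the same direction at passage 4, where 8.3% and 5.05% of all genes were called lower and higher. Both passages may share leukaemias through serial transplantation, so passage 4 is not an independent set of tumours.

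**Figure D5:**
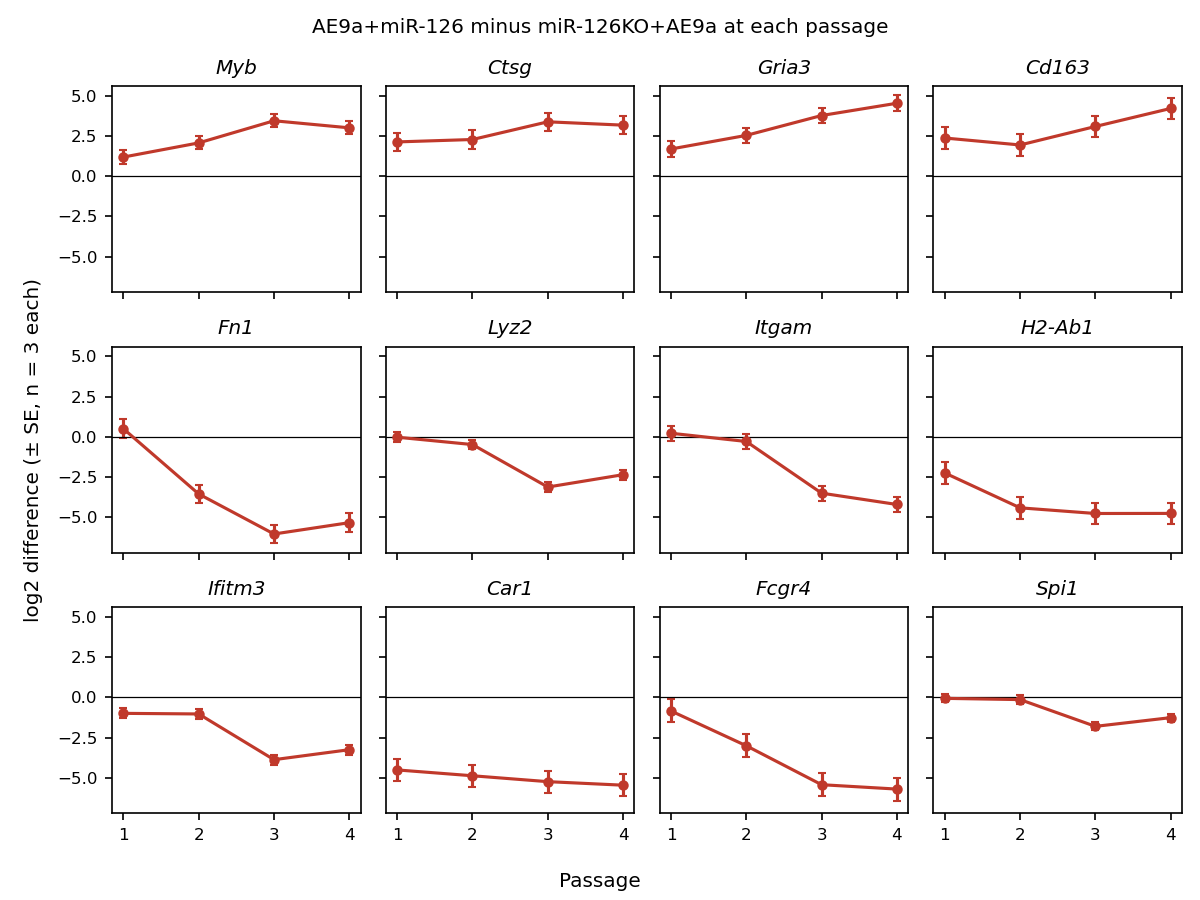
Difference AE9a+miR-126 minus miR-126KO+AE9a at each passage (log2, ± SE, n = 3 each) for 12 genes picked for their roles after values were seen. Fn1 lies at 0.50, -3.56, -6.05 and -5.34 from passage 1 to 4, whereas Car1 is already -4.51 at passage 1.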

How the data were processed

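Affymetrix mouse gene arrays (39, of 1 colour) measured RNA with 27037 probe sets. The deposited log2 values were made by the authors with RMA and Partek 6.0, per the submitters' processing notes; no filter or batch step is named there. Probe sets with 1 symbol in the platform annotation were kept, the brightest per gene, which left 22180 genes. All 39 arrays entered a limma 3.58.1 model (R 4.3.3) with 13 group means and 26 residual degrees of freedom. P-values were Benjamini-Hochberg adjusted over all genes, with 0.05 as threshold, and ± after a difference is its standard error. Array number limits precision. The members, gene lists and rules were chosen with earlier results of these data known. Rankings of rises and falls passed over predicted genes, small RNAs, odorant, vomeronasal and taste receptors and ribosomal protein pseudogenes. Named were the 12 largest rises and 12 largest falls with no overlap, 9 fixed genes, up to 4 members of each list with the smallest adjusted p, and genes passing all 6 settings; uncalled members were named after their values were seen. Settings were cyclic loess, quantile normalization, scaling to a common SD, and the array SD as a covariate. The fit was tested on simulated data with no built-in difference in spread between the compared groups, so the test cannot speak to array spread. Deviations of same-numbered arrays of the groups correlated at r = -0.18, 0.26 and 0.09, and those of unlike number at -0.31 to 0.26. This check cannot tell whether numbers pair mice, and the main model fitted no pairing.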

Additional observations from a re-analysis of the deposited data

Results flagged for a closer look

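The effect of added miR-126 against the knockout differed between passages 3 and 1 in limma for 11 of the 12 largest rises, with log2 differences of the effect, passage 3 minus passage 1, of 4.14 for Tmem178, 3.81 for Ssxb6, 2.23 for Dscam, 2.82 for Pyroxd2, 3.84 for Btbd35f1, 2.08 for Gria3, 3.43 for Rbm24, 3.25 for Stag3, 2.26 for Myb, 3.48 for Speer4cos and 3.06 for Clec2m. It differed likewise for 11 of the 12 largest falls, by -5.59 for Ifi204, -4.79 for Cd36, -4.10 for Clec4a1, -6.55 for Fn1, -4.00 for Clec4a3, -4.59 for Fcgr4, -3.90 for Chil1, -4.99 for Adgre4, -4.21 for Ms4a4a, -4.15 for Pltp and -4.00 for Cpa3. Ctsg and Car1 were the exceptions. Spred1 (-1.47), Fzd7 (-1.20) and Ptprc (-1.56) differed between these passages too. The added arrays of passage 3 had SDs of 1.43 to 1.71 and those of passage 1 had SDs of 1.98 to 2.03. With the spread as a covariate 5 of these rises and 5 of these falls were called.

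Between passages 3 and 4 the effect differed for Retnlg (6.74), a resistin-like protein of neutrophils, and Ngp (2.85), a neutrophil granule protein. Retnlg read 10.61, 9.68 and 11.94 in AE9a+miR-126-P3 against 9.56, 10.12 and 9.95 in miR-126KO+AE9a-P3, and averaged 5.02 in AE9a+miR-126-P4 against 10.90 in miR-126KO+AE9a-P4. Ngp averaged 10.66 in AE9a+miR-126-P3 against 11.21 in miR-126KO+AE9a-P3, and 8.15 in AE9a+miR-126-P4 against 11.55 in miR-126KO+AE9a-P4.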

How the results depend on the processing

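The count of 12807 genes at passage 3 was 6642 after cyclic loess, 8429 after quantile normalization, 1468 with the array SD as covariate, 6431 without dim genes, and 6981 and 4880 when scaling or cyclic loess was joined to leaving out AE9a+miR-126-P3 replicate 3. Leaving out 1 array at a time gave 8093 to 13038, the lowest without that replicate. The 2-fold count of 5122 was 2356 after cyclic loess, 979 with the covariate, and 2942 and 2099 in the joined settings, with 3550 to 6185 when 1 array was left out. The share of higher genes in it was 29.8% in the deposited values, 48.7% after cyclic loess, 43.3% after quantile normalization, 46.1% with the covariate and 9.43% without dim genes. The 6926 genes that differed between passages 3 and 1 became 11985 with array weights, 2440 after cyclic loess, 3827 after quantile normalization, 364 with the covariate, 3985 without dim genes, 2571 and 1583 in the joined settings, and 3098 to 8380 when 1 array was left out, the lowest without AE9a+miR-126-P3 replicate 3 and 4360 without miR-126KO+AE9a-P3 replicate 2. The 2 genes between passages 3 and 4 became 1 in the compared arrays alone, 2331 with array weights, 5 after quantile normalization, 6 after scaling, 3 with the covariate, 4 and 3 in the joined settings, and 2 to 9 when 1 array was left out, the highest without AE9a+miR-126-P4 replicate 2. With the replicate number as a block 12521 genes passed, although the numbers are not known to pair mice. The joined settings were chosen after seeing the data. With cyclic loess the signs that turned were Bpi -0.13, Cybb 0.07, Dusp5 0.064, Laptm5 0.15, Pkm 0.36, Rpl10a 0.26, Tbp 0.085, Vwf -0.015, Ywhaz 0.37, Zzef1 0.31, the medians of all genes tested -0.0083, progenitor transcription factors 0.14, myeloid differentiation factors 0.25, primary granule proteins 0.53, secondary and tertiary granule proteins 0.50, MHC class I processing 0.26, ERK feedback regulators 0.16, ribosome biogenesis 0.25, cytosolic ribosomal proteins 0.83, glycolysis 0.62, T and NK cell -0.22, megakaryocyte -0.032, housekeeping genes 0.52. With quantile normalization the signs that turned were Bpi -0.085, Zzef1 0.087, the medians of myeloid differentiation factors 0.012, primary granule proteins 0.26, secondary and tertiary granule proteins 0.0038, ribosome biogenesis 0.043, cytosolic ribosomal proteins 0.29, glycolysis 0.24, T and NK cell -0.19. With scaling to a common SD the signs that turned were Bpi -0.10, Cybb 0.25, Pkm 0.34, Ywhaz 0.59, the medians of secondary and tertiary granule proteins 0.27, MHC class I processing 0.0002, ERK feedback regulators 0.20, cytosolic ribosomal proteins 0.86, glycolysis 0.24, T and NK cell -0.11, housekeeping genes 0.23. With the spread as a covariate the signs that turned were Cd79b 0.26, Tbp 0.12, Zzef1 0.30, the medians of odorant and vomeronasal receptors -0.042, fusion and runt factors 0.017, progenitor transcription factors 0.31, primary granule proteins 0.63, MHC class I processing 0.14, cell cycle and DNA replication 0.21, ribosome biogenesis 0.28, cytosolic ribosomal proteins 0.26, glycolysis 0.13, T and NK cell -0.15. With scaling to a common SD and without AE9a+miR-126-P3 replicate 3 the signs that turned were Actb 0.024, Cybb 0.27, Dusp5 0.024, Pkm 0.37, Psap 0.052, Ptprc 0.0084, Rpl10a 0.37, Ywhaz 0.57, Zzef1 0.057. With cyclic loess and without AE9a+miR-126-P3 replicate 3 the signs that turned were Actb 0.12, Cbfb 0.021, Dusp5 0.091, Laptm5 0.044, Pes1 0.063, Pkm 0.13, Rpl10a 0.54, Tbp 0.14, Vwf -0.085, Ywhaz 0.11, Zzef1 0.32. Without AE9a+miR-126-P3 replicate 3 the signs that turned were the medians of primary granule proteins 0.36, cytosolic ribosomal proteins 0.19, T and NK cell -0.0066. The cause of these turns was not tested. Signal over background limits the comparison, since fewer genes stood above the odorant receptors in the added arrays.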

Other observations

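Beyond the first 12, further falls passed all 6 settings. Ace, the angiotensin-converting enzyme, was lower by 5.07 ± 0.50 with added miR-126 (SE, n = 3 each), reading 5.47, 5.15 and 6.09 in AE9a+miR-126-P3 against 10.09, 11.13 and 10.71 in miR-126KO+AE9a-P3. Naaa, a lysosomal amidase of lipid mediators, differed by -5.04 ± 0.39, and Slc11a1, the NRAMP1 metal transporter of phagosomes, by -4.61 ± 0.65. Hspa1b, an inducible heat shock protein, differed by -4.86 ± 0.72 and Klra2, a Ly49 family receptor, by -4.86 ± 0.69. Ms4a8a of the MS4A family differed by -4.60 ± 0.62. The added arrays lay below the knockout arrays for all of these genes. In AE9a-P3, Ace averaged 6.58, nearer the mean with added miR-126 (5.57) than the knockout mean (10.64). Hspa1b (9.71) and Klra2 (9.14) lay nearer the knockout means of 11.69 and 9.45.

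Among further rises under all 6 settings were Adgrg3 (2.88 ± 0.47), an adhesion receptor of granulocytes, Ncam1 (2.76 ± 0.44), the adhesion molecule CD56, which read 8.62 ± 0.46 in the normal controls (SD, n = 3), Muc13 (2.74 ± 0.52), a membrane mucin, and Tns1 (2.60 ± 0.47), a focal adhesion protein. Mid1, an X-linked ubiquitin ligase, read 11.77, 11.91 and 11.27 with added miR-126 against 9.09, 9.10 and 9.25 in the knockout (2.50 ± 0.41). The sphingosine receptor S1pr3 rose by 2.39 ± 0.54 and the gluconeogenic enzyme Fbp1 by 2.58 ± 0.70. These genes were ranked after their values were seen. AE9a-P3 averaged 9.78 for Adgrg3 and 8.73 for Fbp1. Both lay nearer the means with added miR-126 (9.86 and 7.49) than the knockout means (6.98 and 4.91). Of the 302 genes higher under all 6 settings, AE9a-P3 lay nearer the added mean for 46 and nearer the knockout mean for 256.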
